A study of Sus scrofa with 67 samples.

Results

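The genes described here are 146 of the 25322 genes counted in the porcine oviduct, endometrium and ovary across the oestrous cycle. They were chosen on their change between day 0 (oestrus) and day 9 (mid-luteal phase). For each tissue and day, the mean CPM (a gene's count over the library's total, times 1000000) was taken and 1 was added, and the day 9 value was divided by the day 0 value. A gene was a member when this ratio was 2.5 or more in the oviduct and above 0.5 and under 2 in both the endometrium and the ovary. Of the members, 84 have a gene symbol and 62 are known only by an Ensembl identifier. In all, 406 genes reached the oviduct ratio, and those whose ratio left the stated range in the endometrium or the ovary are not members.

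RNA was sequenced from cycling, non-pregnant crossbred gilts (Landrace × Yorkshire) every 3 days from day 0 to day 18 of the cycle, which makes 7 days, with no treatment. The 3 tissues were the ampulla region of the oviduct, the endometrium dissected free of the muscle layer, and the whole ovary of 1 side. Groups hold 3 libraries each, except 4 for the endometrium on day 15, the ovary on days 12 and 15 and the oviduct on days 12 and 15, and 2 for the ovary on day 3 and the oviduct on day 6. Libraries are named here by tissue, day and the number they carry in the count table, and the sources differ in how many gilts they state.

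The oviduct is a tube lined by ciliated and secretory epithelial cells on a thin stroma and smooth muscle, and its ampulla is where eggs are fertilised. After ovulation the corpora lutea of the ovary secrete progesterone, which is high through the mid-luteal phase and falls when the corpora lutea regress. Oestradiol, high around oestrus, drives the secretory cells to make the oviductal glycoprotein OVGP1. Days 6 to 12 of the porcine cycle are luteal days, and days 15 and 18 are days of luteal regression and of the next follicular phase.

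Across the 66 libraries, total counts ranged from 8962103 to 13442083, and from 8962103 to 11573086 in the oviduct, where a limit of 3 counts stands for 0.259 to 0.335 CPM. OVGP1 took 5.13 to 16.8% of all oviduct counts on day 0 and 0.114 to 0.753% on day 9. It stayed at or under 0.0119% in every endometrial and 0.197% in every ovarian library. On column totals the median gene at 1 CPM or more had a log2 ratio of day 9 over day 0 of 0.26 in the oviduct and -0.31 in the ovary. After TMM scaling (trimmed mean of M-values, which sets libraries level over most genes) the same medians were 0.01 and -0.05. With TMM-scaled CPM the rule gave 83 genes in place of 146, of which 77 are members here.

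Libraries of 1 group did not always resemble each other. The number of members with more than 3 counts and above 2 times the median of the group's other libraries was 80 in oviduct day 18 library 1, 64 in oviduct day 15 library 2, 45 in oviduct day 3 library 3, 60 in ovary day 12 library 1 and 67 in ovary day 15 library 1. Ovary day 15 library 1 also carried 652.6 CPM of 15 ciliated cell markers, against 31.6 to 46.1 CPM in the other libraries of that group. The counts of called members that rest on these libraries are given with and without them.

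In the oviduct the median of the members' mean levels was 5.99 CPM at oestrus. It was 11.4 on day 3, 19.1 on day 6 and 24.1 CPM on day 9, then 20.2 CPM on day 12, 14.9 CPM on day 15 and 8.78 CPM at the last sampling. The same median stayed between 6.35 and 9.36 CPM on all 7 days in the endometrium and between 2.52 and 5.48 CPM in the ovary. Day 9 and day 0 chose the members, so their part of this course is a description. The oviduct ratio ran from 2.503 to 57.6 with a median of 2.99, and 74 members lay under 3 and 17 above 5. In 137 members every oviduct library of day 9 was above every library of day 0, and in 9 they overlapped. The choice of members on these same libraries favours this, and the share over all genes was not counted. The quasi-likelihood test of edgeR, adjusted by Benjamini-Hochberg, called 75 of the 146 higher on day 9 and left 71 uncalled. Over the 15665 genes tested 3.26% were called higher. The choice of members on these libraries favours their count, so it is a description only. Just inside the threshold lay ADAMTS13 and KLF7, both at 2.503, and just outside it LMNTD2 and ENSSSCG00000017480, both at 2.497.

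**Figure D1:**
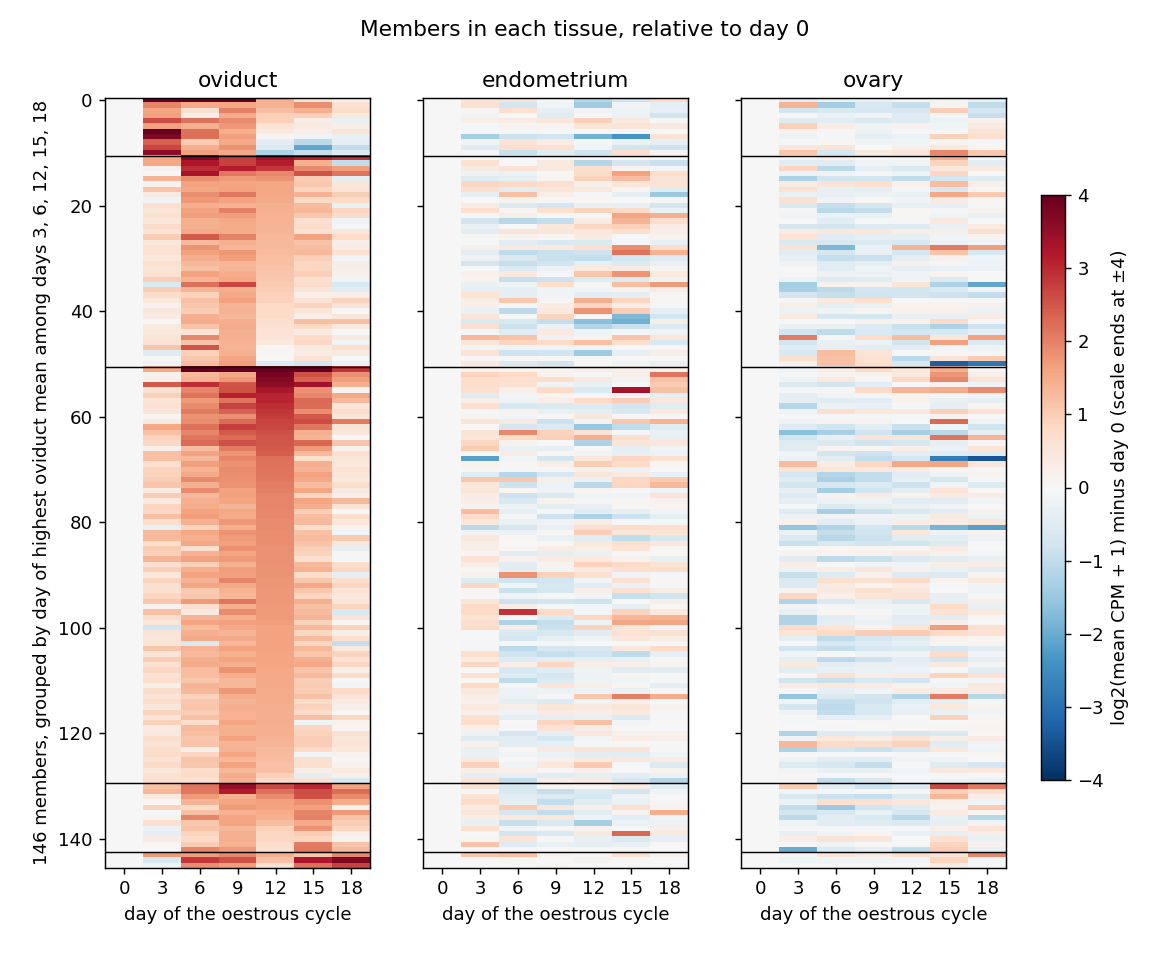
Each row is 1 of the 146 members and each column a day, for the oviduct, the endometrium and the ovary. Colour gives log2 of the mean CPM plus 1, less its day 0 value, so day 0 is blank, and black lines part the members by the day of their highest oviduct mean among days 3, 6, 12, 15 and 18. The blocks of 40 members for day 6 and 79 for day 12 hold most rows, and both other tissues are paler on most days.

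On the days the rule did not use, the oviduct means of 79 members (54.1%) were highest on day 12 and those of 40 (27.4%) on day 6, against 27.3% and 28.6% of the 14497 genes at 1 CPM or more over those days. The lowest of these means fell on day 18 in 81 members (55.5%, against 39.6% of all genes) and on day 3 in 50 (34.2%, against 37.6%). The level was 2.5 or more times that of day 0 in 20 members on day 3 and in 89 on day 6 (0.695% and 1.75% of all 25322 genes). This number was 98 for day 12, 51 for day 15 and 17 for day 18 (1.65%, 1.13% and 0.517% of all genes). These ratios share their day 0 libraries with the rule. The other tissues moved on other days for some members: the same ratio reached 2.5 on a day other than 9 for 22 members in the endometrium and 19 in the ovary, while 112 stayed under it in both on every day. On single days other than 9, 0.411 to 2.61% of all genes reached 2.5 in the endometrium and 1.13 to 2.54% in the ovary. In the ovary 16 members reached it on day 15, against 2.54% of all genes. Without ovary day 15 library 1 that number of members was 7, the ovarian total 11 in place of 19, and 117 members stayed under the ratio in both tissues. In whole tissue, more cells of a type and more RNA per cell cannot be told apart.

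Between day 12 and day 18, in libraries that took no part in the choice, 57 of 146 members were called higher on day 12 and 0 lower by edgeR's quasi-likelihood test over all genes (adjusted p under 0.05). The spread in this test came from all oviduct libraries, those of days 0 and 9 included, so the calls are not fully apart from the choice. Over all 15665 genes 8.98% were called higher and 13.4% lower. The log2 fold change of day 12 over day 18 was above 0 in 126 members, with a median of 0.93 against -0.0027 for all genes. The count was 74 without oviduct day 18 library 1, 29 without library 2 and 35 without library 3 of that day. It was 32 when the spread was taken from these 2 groups alone. The share of all genes called in each of these fits is not given here. Of the 83 genes that meet the rule on TMM-scaled CPM, 35 were called higher and 0 lower.

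Other cell types moved between the same days. The summed level of 8 smooth muscle markers was 2162 to 10840 CPM on day 12 and 11300 to 24800 CPM on day 18, and that of 8 fibroblast and matrix markers 1050 to 2856 and 1964 to 5746 CPM. In each of these lists 3 genes were called lower on day 12. The 15 ciliated cell markers ran from 2748 to 5031 CPM on day 12 and from 2333 to 3588 CPM on day 18, with 1 called higher, and the 4 secretory markers from 5230 to 30150 CPM and from 13080 to 63790 CPM, with 0 of 3 tested called. Of the other lists, 2 of 4 endothelial genes were called lower, 0 of 8 leukocyte and 0 of 2 red blood cell genes were called, and the 1 adipocyte gene measured was too low to test. The members' own sum was 8809, 11370, 10940 and 9745 CPM in the 4 libraries of day 12 and 6495, 3238 and 3185 CPM in libraries 1, 2 and 3 of day 18. Day 18 library 1, with the highest members' sum of its day, had the lowest smooth muscle and matrix sums of its day. On day 15 the members' sum was highest in library 2 at 10130 CPM, where smooth muscle stood at 1760 CPM, and lowest in library 3 at 4925 CPM, where it stood at 35900 CPM. Day 18 libraries 2 and 3, alike in members' sum, had smooth muscle at 24800 and 13500 CPM. On day 3 library 3 had the highest members' sum at 6973 CPM, with smooth muscle at 21810 CPM and matrix at 3502 CPM. Library 2 of day 3 had the lowest members' sum at 3782 CPM, with smooth muscle at 11850 CPM and matrix at 5677 CPM. The part of cell makeup in these changes was not tested.

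**Figure D2:**
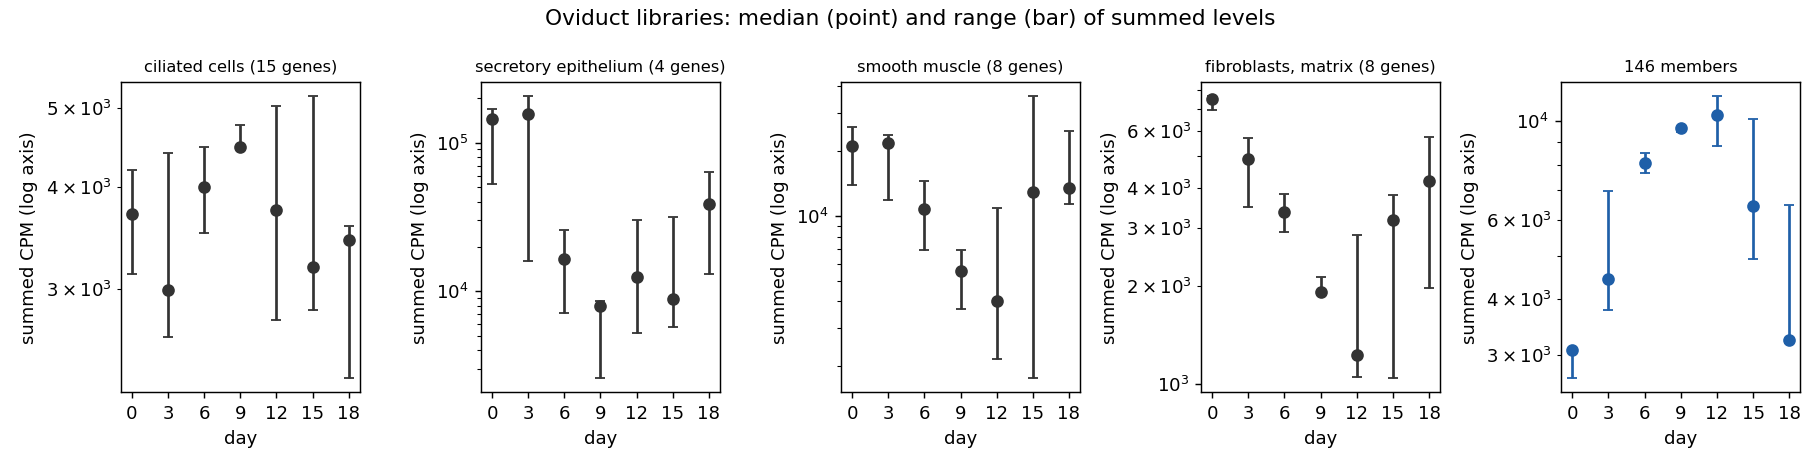
Summed CPM in the oviduct libraries by day on log axes for 4 lists of cell type markers and for the 146 members, with points for the median and bars for the lowest and highest library. Smooth muscle and matrix sums are low on days 9 and 12 when the members' sum is high, and day 15 spans from 4925 to 10130 CPM for the members.

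The ERBB family of receptor tyrosine kinases passes signals of the epidermal growth factor (EGF) family to epithelial cells, and ERBB2 has no ligand of its own and works as the partner of ERBB3 and others. ERBB2 stood at 116 ± 19.6 CPM on day 0 and 385 ± 44.8 CPM on day 9 in the oviduct (SD, n = 3). On day 12 its 4 libraries held 374, 480, 454 and 439 CPM, and on day 18 the 3 libraries held 254, 118 and 94.9 CPM. The groups did not overlap, and the log2 fold change was 1.29 (SE 0.28, adjusted p = 0.00644 by edgeR). Oviduct ERBB3 held 23.0, 30.9, 25.7 and 30.4 CPM on day 12 and 14.6, 3.21 and 9.08 CPM on day 18, again without overlap, with a log2 fold change of 1.45 (SE 0.35, edgeR adjusted p = 0.0103). Endometrial ERBB3 was higher than oviductal ERBB3 on days 15 and 18, at 39.6 to 151 CPM and 38.5 to 75 CPM. The ligand AREG (amphiregulin) was scarce in the oviduct, with 0.885, 3.57, 8.26 and 3.42 CPM on day 12 and 1.26, 0.0869 and 0.468 CPM on day 18. These AREG groups overlapped, and its log2 fold change of 2.54 (SE 0.86) passed the edgeR test at an adjusted p of 0.0408. That call was lost without oviduct day 12 library 2 (adjusted p = 0.0642), 3 (0.127) or 4 (0.0586) and without day 18 library 2 (0.163) or 3 (0.0991).

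The ovary held far more AREG than the oviduct. The mean was 217 CPM on day 0 and 241 CPM on day 9 in the ovary against 1.45 and 14.5 CPM in the oviduct, and on day 12 the log2 difference of oviduct against ovary was -6.80 (SE 1.34, edgeR adjusted p = 2.94e-05). Ovary day 12 library 1 stood apart at 6.33 CPM of AREG, the others at 352, 496 and 367 CPM. NPY1R, a receptor for neuropeptide Y, and ECM1, a secreted matrix protein, shared this order, with ovarian day 9 means of 487 and 304 CPM against 23.0 and 38.8 CPM in the oviduct. Being a member therefore states the fold and not the tissue with the most RNA.

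Among junction, adhesion and matrix genes, COL28A1, a collagen, had the widest ratio of all members. Its oviduct libraries held 0, 0.658 and 0.691 CPM on day 0, from 0, 7 and 8 counts, and 69.5, 61.5 and 116 CPM on day 9. On day 3 the values were 0.368, 0.361 and 8.60 CPM, on day 12 96.0, 150, 95.2 and 57.5 CPM, and on day 18 21.8, 4.26 and 3.37 CPM. COL28A1 on day 12 was thus above every library of days 3 and 18, with log2 fold changes of 4.90 (SE 1.02, edgeR adjusted p = 0.0177) and 3.18 (SE 0.91, edgeR adjusted p = 0.0200). The second call was lost without oviduct day 18 library 2 (adjusted p = 0.0965) or library 3 (0.0619), and the first without day 3 library 1 (0.0912) or day 12 library 2 (0.0507). In the endometrium no COL28A1 library passed 0.545 CPM, and in the ovary only day 15 library 1, at 6.79 CPM, passed 1.16 CPM.

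CLDN4, a claudin of epithelial tight junctions, was abundant. Its oviduct libraries held 416, 511, 588 and 608 CPM on day 12 and 467, 203 and 133 CPM on day 18, and the groups overlapped through day 18 library 1. The log2 fold change of CLDN4 was 0.79 (SE 0.33, edgeR adjusted p = 0.0880), and 1.33 (edgeR adjusted p = 0.00769) without that library. In the endometrium CLDN4 reached 468 to 1608 CPM on day 15, above its 202 to 306 CPM on day 0. FERMT1, a kindlin that helps to activate integrins, held 146, 197, 150 and 176 CPM on day 12 and 128, 44.1 and 63.5 CPM on day 18 in the oviduct. Its log2 fold change of 0.91 (SE 0.42) had an edgeR adjusted p of 0.123, which became 0.0424 without day 18 library 1. ADAM15, a membrane metalloproteinase with an integrin-binding domain, held 45.6, 30.6 and 65.1 CPM on day 3 and 128, 164, 137 and 136 CPM on day 12. These did not overlap, and the log2 fold change of ADAM15 was 1.38 (SE 0.23, edgeR adjusted p = 0.00466). IGSF8, a tetraspanin partner on the cell surface, held 69.9, 90.5, 88.7 and 63.3 CPM on day 12 and 37.9, 32.8 and 31.0 CPM on day 18, also without overlap.

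**Figure D3:**
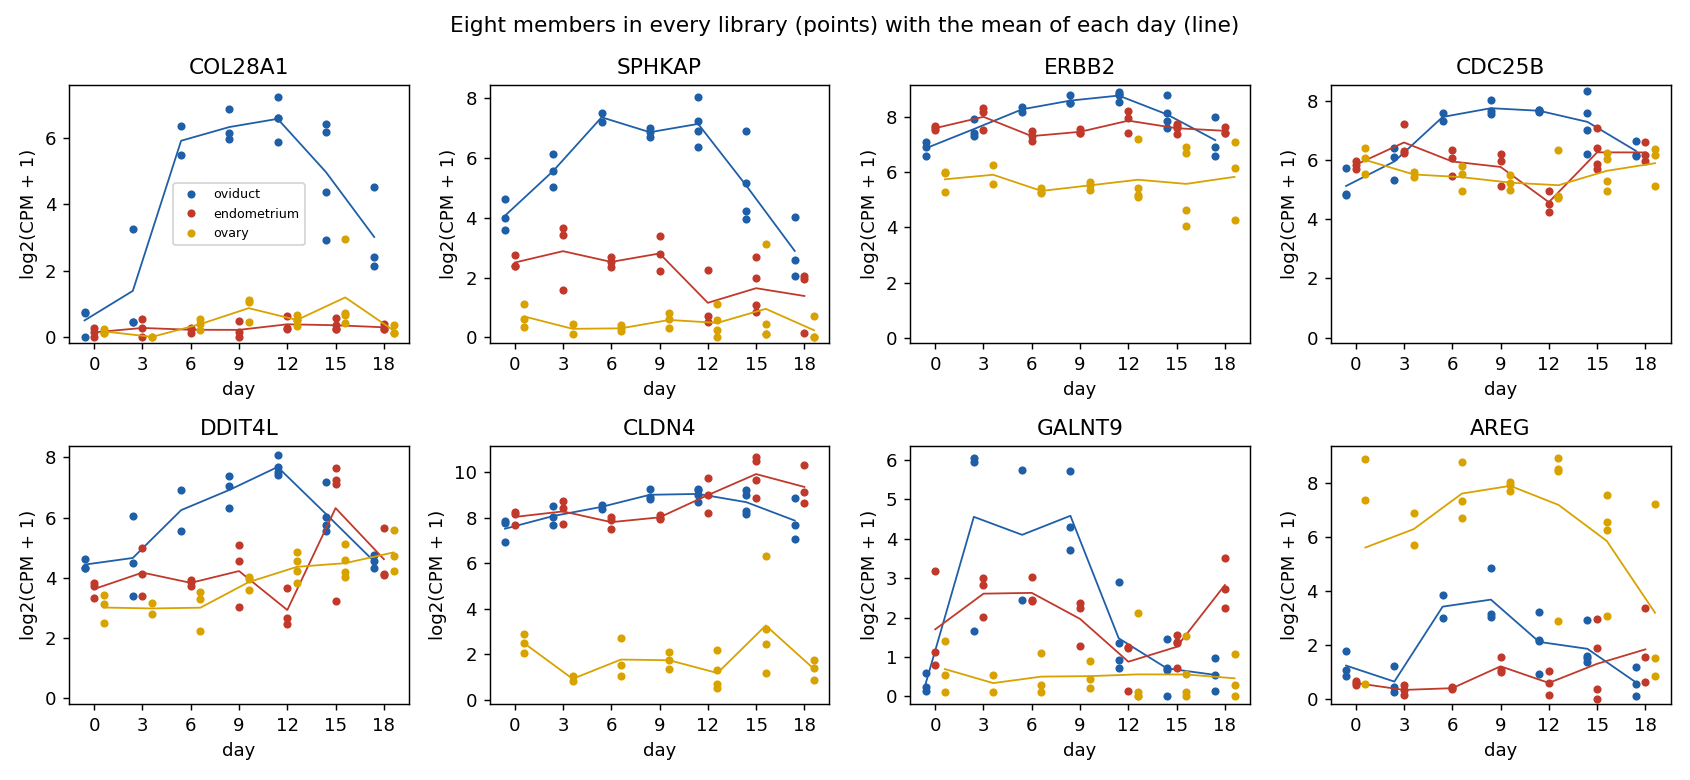
log2(CPM + 1) by day for COL28A1, SPHKAP, ERBB2, CDC25B, DDIT4L, CLDN4, GALNT9 and AREG, with 1 point per library and lines through the day means of the oviduct (blue), endometrium (red) and ovary (yellow). Oviduct points of most genes are highest on days 6 to 12, GALNT9 is already high on day 3, CLDN4 climbs in the endometrium on day 15, and AREG is highest in the ovary.

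Cell cycle members were led by CDC25B, a phosphatase that activates cyclin-dependent kinases at entry into mitosis. Its oviduct libraries held 205, 209, 202 and 198 CPM on day 12 and 99.9, 70.8 and 69.5 CPM on day 18. The groups of CDC25B did not overlap, with a log2 fold change of 1.12 (SE 0.34, edgeR adjusted p = 0.0267). The call was lost without day 12 library 2 (adjusted p = 0.0540) and without day 18 library 2 (0.0902) or 3 (0.0791). In the endometrium CDC25B was lower on day 12, with 30.1, 18.0 and 22.1 CPM against 62.2, 97.8 and 71.8 CPM on day 18 (log2 fold change -1.64, SE 0.39, edgeR adjusted p = 0.00323). The change in the oviduct exceeded that in the endometrium by 2.81 log2 units (SE 0.53, edgeR adjusted p = 0.000738) and that in the ovary by 1.69 (SE 0.50, edgeR adjusted p = 0.0136). Without ovary day 18 library 3 the latter was 1.45, with an adjusted p of 0.0563. CKAP2L, a mitotic spindle protein, spread widely within days in the oviduct, at 0.921, 6.41 and 33.4 CPM on day 3 and 8.46 to 81.8 CPM on day 15. MCM9, a helicase of DNA repair whose locus overlaps ASF1A, held 12.8, 15.2, 13.6 and 11.9 CPM on day 12 and 7.48, 1.56 and 4.30 CPM on day 18.

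Nuclear and RNA-processing members included the most abundant one. EFTUD2, a GTPase of the spliceosome, stood at 211 ± 25.9 CPM on day 0 and 785 ± 37.3 CPM on day 9. It held 784, 1142, 863 and 979 CPM on day 12 and 409, 264 and 267 CPM on day 18, without overlap, a log2 fold change of 1.37 (SE 0.25, edgeR adjusted p = 0.00383). In the endometrium EFTUD2 lay between 189 and 335 CPM in all 22 libraries, and in the ovary between 132 and 287 CPM. Its change exceeded that in the endometrium by 1.13 log2 units (SE 0.28, edgeR adjusted p = 0.00780) and that in the ovary by 0.75 (SE 0.27, edgeR adjusted p = 0.0408), and the latter call was lost without 10 of the 14 libraries in turn (adjusted p up to 0.122). PHF1, a partner of the Polycomb repressive complex that methylates histone H3, held 144, 164, 171 and 176 CPM on day 12 and 95.1, 70.2 and 54.2 CPM on day 18, again without overlap. Its log2 fold change was 0.93 (SE 0.23, edgeR adjusted p = 0.0108). It exceeded that in the ovary by 1.19, a call lost without ovary day 12 library 2 (adjusted p = 0.0535) or 4 (0.0603), ovary day 18 library 2 (0.0846) or oviduct day 18 library 3 (0.0681).

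Transcription factors among the members were KLF7, BCL6, FOXI1, HOXB6 and several zinc finger genes. KLF7, a Krüppel-like factor, held 48.1, 64.5, 55.6 and 71.2 CPM on day 12 and 27.2, 8.60 and 25.2 CPM on day 18 in the oviduct. The log2 fold change of KLF7 was 1.38 (SE 0.27, edgeR adjusted p = 0.00435), and it exceeded that in the endometrium by 1.5 (SE 0.39, edgeR adjusted p = 0.0112) and that in the ovary by 2 (SE 0.38, edgeR adjusted p = 0.000266). The difference from the endometrium lost its call without endometrium day 12 library 3 (adjusted p = 0.0543) or oviduct day 18 library 2 (0.0708). BCL6, a transcriptional repressor, held 63.4, 86.6, 68.7 and 77.6 CPM on day 12 and 55.1, 22.5 and 16.6 CPM on day 18. Its log2 fold change was 1.04 (SE 0.34, edgeR adjusted p = 0.0339). FOXI1, a regulator of ion-transporting epithelial cells, was listed at 0 in all 3 oviduct libraries of day 0 and held 0.0921, 0.0902 and 0 CPM on day 3. It held 7.28, 2.57, 10.5 and 3.42 CPM on day 12 and 1.08, 0.0869 and 0 CPM on day 18. FOXI1 was called higher on day 12 than on both other days (edgeR adjusted p = 0.0162 against day 3 and 0.0130 against day 18). No fold is given for FOXI1 against days 0 and 3, where no library passed 1 count.

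Among processing enzymes and glycosyltransferases, CPD, a carboxypeptidase of the secretory pathway, held 558, 1172, 1055 and 573 CPM on day 12 and 515, 198 and 254 CPM on day 18. Its groups did not overlap, and the log2 fold change was 1.19 (SE 0.32, edgeR adjusted p = 0.0149). The call was lost without day 18 library 2 (adjusted p = 0.0859) or library 3 (0.0513). In the endometrium CPD held 175 to 209 CPM on day 12 and 326 to 539 CPM on day 18 (log2 fold change -0.95, edgeR adjusted p = 0.0534). The change in the oviduct was higher than that by 2.20 log2 units (SE 0.47, edgeR adjusted p = 0.00238). ST6GALNAC2, which adds sialic acid to O-linked sugars, held 157, 188, 216 and 316 CPM on day 12 and 163, 85.1 and 104 CPM on day 18. The groups of ST6GALNAC2 overlapped, with a log2 fold change of 0.70 (SE 0.26, edgeR adjusted p = 0.0612). That adjusted p was 0.0274 without day 18 library 1 and 0.0368 without day 12 library 1.

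GALNT9, which starts O-linked glycosylation on proteins, followed another course. Its oviduct libraries held 0.498, 0.0940 and 0.173 CPM on day 0, 60.7, 2.17 and 65.7 CPM on day 3, 4.47 and 52.8 CPM on day 6 and 18.8, 12.1 and 52.1 CPM on day 9. On day 12 they held 1.57, 0.893, 0.643 and 6.45 CPM. Day 3 library 2 overlapped day 12, and GALNT9 fell by 4.31 on the log2 scale from day 3 to day 12 (SE 1.04, edgeR adjusted p = 0.0319). That call was lost without day 3 library 1 (adjusted p = 0.123) or 3 (0.0597) and without day 12 library 1 (0.05), 2 (0.106) or 3 (0.0997).

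FMO2 is a flavin-containing monooxygenase of a family of close relatives, whose reads can be shared. It held 23.1, 17.3 and 36.6 CPM on day 9 in the oviduct against 1.69, 2.73 and 1.38 CPM on day 0. On day 12 it held 6.88, 18.0, 4.39 and 20.2 CPM and on day 18 33.4, 1.30 and 3.74 CPM. Day 18 library 1 topped every FMO2 value of day 12, and the log2 fold change was -0.17 (SE 0.91, edgeR adjusted p = 0.911). GPX6, a glutathione peroxidase, was high in single libraries: 55.2 CPM in day 18 library 1 and 54.9 CPM in day 15 library 4. Other oviduct libraries held from 0 to 21.4 CPM of GPX6, and 0 CPM in day 9 library 2, so its ratio of 5.88 rests on the 8.20 and 18.5 CPM of libraries 1 and 3.

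SPHKAP, DDIT4L and CAMK2N1 act in kinase signalling. SPHKAP, an anchor for protein kinase A, stood at 16.5 ± 6.49 CPM on day 0 and 115 ± 11.4 CPM on day 9. It held 118, 260, 149 and 81.1 CPM on day 12 and 5.05, 3.13 and 15.2 CPM on day 18 without overlap, a log2 fold change of 4.09 (SE 0.70, edgeR adjusted p = 0.00310). It was the largest of the members' log2 fold changes of day 12 over day 18. The change in SPHKAP exceeded that in the endometrium by 4.46 log2 units (SE 1.27, edgeR adjusted p = 0.0196). This call was lost without endometrium day 12 library 1 (adjusted p = 0.0526) or 3 (0.0615), endometrium day 18 library 2 (0.0619) or 3 (0.0548), or oviduct day 18 library 2 (0.0703). DDIT4L, an inhibitor of mTOR signalling, held 204, 272, 170 and 183 CPM on day 12 and 22.5, 18.9 and 25.9 CPM on day 18, and its log2 fold change was 2.99 (SE 0.57, edgeR adjusted p = 0.00406). In the endometrium DDIT4L held 5.27, 11.7 and 4.54 CPM on day 12 and then 150, 8.45, 199 and 139 CPM on day 15. The oviduct change between days 12 and 18 exceeded the endometrial one by 4.93 (SE 0.90, edgeR adjusted p = 0.000483) and the ovarian one by 3.36 (SE 0.83, edgeR adjusted p = 0.00319). CAMK2N1, an inhibitor of calcium/calmodulin-dependent kinase II, held 50.9, 51.1, 87.9 and 104 CPM on day 12 and 43.2, 22.4 and 9.64 CPM on day 18. These did not overlap, yet its log2 fold change of 1.34 (SE 0.48) had an edgeR adjusted p of 0.0518, which was 0.0201 without day 18 library 1 and 0.0465 without day 12 library 1.

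The membrane proteins PRRT2, LMBR1L and TAS1R3 also passed the test between days 12 and 18. PRRT2, known from synaptic vesicle release, held 20.6, 27.3, 24.0 and 33.0 CPM on day 12 and 7.57, 2.78 and 8.70 CPM on day 18 (log2 fold change 1.86, SE 0.32, edgeR adjusted p = 0.00310). LMBR1L, a lipocalin receptor, held 139, 144, 124 and 113 CPM and 63.4, 31.3 and 27.1 CPM (log2 fold change 1.48, SE 0.26, edgeR adjusted p = 0.00361). TAS1R3, a taste receptor subunit whose locus overlaps DVL1, held 29.6, 44.3, 44.7 and 32.4 CPM and 13, 13.3 and 13.9 CPM (log2 fold change 1.26, SE 0.23, edgeR adjusted p = 0.00376). In none of the 3 genes did the groups overlap, and all 3 changed more than in the ovary, by 2.69, 1.95 and 1.34 log2 units (SE 0.60, 0.38 and 0.42). For TAS1R3 that difference lost its call without ovary day 12 library 3 (edgeR adjusted p = 0.0570) or 4 (0.0559) or ovary day 18 library 3 (0.0969). PRRT2 also changed more than in the endometrium, by 2.23 (SE 0.63, edgeR adjusted p = 0.0184), a call lost without endometrium day 12 library 2 (adjusted p = 0.0565), endometrium day 18 library 2 (0.114) or oviduct day 18 library 2 (0.0879). LMBR1L was higher in the endometrium than in the oviduct on day 0, at 101, 134 and 132 CPM against 32.5, 27.0 and 27.1 CPM.

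Members less moved between days 12 and 18 were LZTS3, a postsynaptic scaffold protein, the coiled-coil gene CCDC190, ADAMTS13, the protease that cleaves von Willebrand factor, and CNTNAP4, a neurexin family protein. LZTS3 held 192, 164, 201 and 148 CPM on day 12 and 186, 56.5 and 78.9 CPM on day 18, with an edgeR adjusted p of 0.148 that became 0.00311 without day 18 library 1. CCDC190 held 86.5, 76.9, 95.6 and 110 CPM and 105, 30.2 and 49.3 CPM, with an adjusted p of 0.345 that became 0.0288 without the same library. ADAMTS13, whose locus overlaps CACFD1 and SLC2A6, held 23.6, 21.4, 22.2 and 18.5 CPM and 31.6, 6.69 and 13.7 CPM (edgeR adjusted p = 0.787). CNTNAP4 held 5.11, 17.1, 38.0 and 28.8 CPM and 20.8, 3.21 and 4.02 CPM (edgeR adjusted p = 0.296). In all 4 genes day 18 library 1 was the highest of its day and overlapped day 12.

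Comparisons within days 3 to 15 called fewer members than day 12 against day 18. Of the 146 members 15 were called higher on day 12 than on day 3 and 6 lower, against 1.05% and 2.52% of all genes tested, with a median log2 fold change of 0.77. The number called higher was 13 without oviduct day 3 library 3 (0.786% of all genes) and the number lower 2 (2.17%). The number called higher was 29 (1.52% of all genes) without day 18 library 1, which enters this fit through the shared spread. It was 4 without oviduct day 3 library 1, 9 without day 3 library 2, and 5, 4 and 9 without day 12 library 2, 3 and 4. With the libraries of days 0 and 9, which chose the members, left out of the fit it was 5. Smooth muscle markers summed to 11850 to 23780 CPM on day 3 and 2162 to 10840 CPM on day 12, with a median log2 fold change of -1.995 and 1 of 8 called lower. For the 8 fibroblast and matrix markers the sums were 3502 to 5677 and 1050 to 2856 CPM, with a median of -1.29 and 2 called lower. The part of cell makeup in this comparison too was not tested. On day 6 against day 3, 0 members were called higher by edgeR (0% of all genes tested), with 34 higher and 1 lower at an unadjusted p under 0.05 (23.3% and 0.685%, against 3.26% and 4.4% of all genes). DESeq2 called 2 members higher, of 24 genes in all. On day 12 against day 15, 0 were called higher by edgeR (0.00638% of all genes tested), with 34 higher and 3 lower at an unadjusted p under 0.05 (23.3% and 2.05%, against 4.86% and 9.27% of all genes). DESeq2 called 2 members higher, of 41 genes in all. Without oviduct day 15 library 2 edgeR called 24 members higher (16.4%, against 1.82% of the genes tested in that fit).

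Called higher on day 12 than on both day 18 and day 3 were 11 members (7.53%, against 0.421% of all genes tested). Both comparisons took their spread from all oviduct libraries, including those that chose the members. The number was 7 without oviduct day 3 library 3 (0.256% of all genes) and 20 without day 18 library 1 (0.889%). COL28A1, FOXI1, DDIT4L, WSCD1, CDC25B, EFTUD2, LMBR1L, IGSF8 and RNF125 are those of the 11 with a symbol. WSCD1, a sulfotransferase-like membrane protein, held 4.7, 3.25 and 7.46 CPM on day 3, 15.8, 39.0, 37.7 and 30.1 CPM on day 12 and 10.5, 3.04 and 5.52 CPM on day 18. RNF125, a ubiquitin ligase, held 9.48, 10.8 and 8.19 CPM, 24.9, 18.8, 19.7 and 17.6 CPM and 9.10, 7.82 and 8.89 CPM on the same days. In both genes every library of day 12 was above every library of days 3 and 18. For day 12 against day 3 the log2 fold change was 1.08 for EFTUD2, 1.46 for CDC25B, 1.94 for CAMK2N1, 2.35 for DDIT4L and 1.03 for LMBR1L, with edgeR adjusted p of 0.0287, 0.0301, 0.0377, 0.0287 and 0.0356. Without 1 library in turn EFTUD2 lost this call for day 3 library 1 or 2 and day 12 library 2, 3 or 4 (adjusted p up to 0.137), and CDC25B for the same 5 (up to 0.103). CAMK2N1 lost it for all 3 libraries of day 3 and day 12 library 2, 3 or 4 (up to 0.138), as did LMBR1L (up to 0.158), and DDIT4L lost it for day 3 library 1 or 3 and day 12 library 2, 3 or 4 (up to 0.142).

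The 6 members called lower on day 12 than on day 3 were GALNT9, SCUBE3, DEFB119, SEZ6L, INMT and ENSSSCG00000027995. SCUBE3, a secreted signalling protein whose locus overlaps TCP11, held 51.6, 4.33 and 75 CPM on day 3, 5.45 and 15.7 CPM on day 6, 14.1, 2.16 and 12.7 CPM on day 9 and 1.67, 0.112, 0.214 and 0.391 CPM on day 12. It fell by 6.29 on the log2 scale (SE 0.97, edgeR adjusted p = 0.00388), and its day 3 and day 12 groups did not overlap. DEFB119, a beta-defensin, held 2.03, 0.0902 and 69.9 CPM on day 3, so 1 library carried nearly all of it. INMT, a methyltransferase, held 20.7, 6.14 and 125 CPM on day 3 and 4.62, 1, 0.858 and 11.2 CPM on day 12. In all 5 genes with a symbol library 3 was the highest of day 3 and library 2 the lowest. Library 3 had 16090 CPM of the secretory list, in which OVGP1 is the main gene, and libraries 1 and 2 had 155100 and 204300 CPM.

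Against the other tissues, the change between days 12 and 18 was called higher in the oviduct than in the endometrium for 29 of 146 members and lower for 0 (3.87% and 5.49% of the 16934 genes tested). It was called higher than in the ovary for 36 and lower for 1, NPY1R, at -3.17 log2 units (9.43% and 11.1% of genes tested). The median difference was 1.07 log2 units against the endometrium and 1.09 against the ovary, with 121 members above 0 in each. Both comparisons share the oviduct libraries. Without oviduct day 18 library 1 the counts were 39 and 52. The endometrial count was 17 without oviduct day 18 library 2 and 18 without endometrium day 12 library 3, and the ovarian one was 44 without ovary day 12 library 1 and 13 with only the compared groups in the fit. Within the endometrium 5 members were called higher and 11 lower on day 12 than on day 18 (7.26% and 5.73% of all genes tested), and within the ovary 6 and 4 (9.2% and 8.31%). The ovarian counts were 12 and 18 without ovary day 12 library 1, where 14.1% and 17.9% of all genes were called. Higher in the oviduct on day 12 than on day 18, with a change above both other tissues, were 12 members (1.1% of all genes tested). The number was 16 without ovary day 12 library 1 (1.42% of all genes) and 23 without oviduct day 18 library 1 (2.18%). Among the 12 are CDC25B, DDIT4L, EFTUD2, FAM43A, KLF7, MCM9, PRRT2 and WSCD1.

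**Figure D4:**
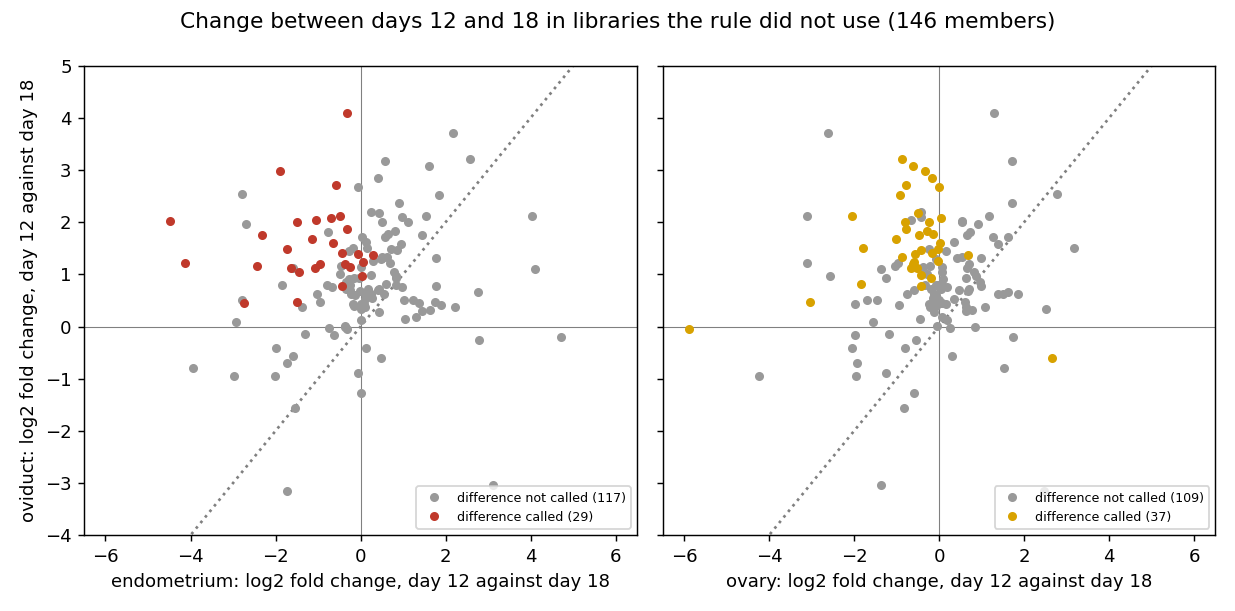
Each point is a member, with the log2 fold change of day 12 over day 18 in the oviduct on the vertical axis and in the endometrium or the ovary on the horizontal axis, and a dotted line of equal change. Coloured points are the 29 and 37 members whose changes differed between the tissues, and all but NPY1R of these lie above the line.

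In absolute level on day 12 the oviduct was called higher than the endometrium for 82 members and lower for 6 (18.6% and 18.4% of genes tested), and higher than the ovary for 107 and lower for 12 (27.1% and 27.9%). Without ovary day 12 library 1 the count against the ovary was 105. For 72 members (49.3%) the oviduct was called above both, against 12% of all genes tested, and for 70 without that library (13% of all genes in that fit). CCDC190 held 141, 187 and 249 CPM in the endometrium on day 12 and at most 0.292 CPM in the ovary. Mean levels under 1 CPM on both day 0 and day 9 were found for 33 members in the endometrium and 47 in the ovary, 26 of them in both. The 1 added to each mean keeps the ratio of such genes near 1.

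Of the 6 lists of oviduct pathways looked at beside the members, AREG alone is a member, as a steroid receptor target and as an EGF family ligand. Among the 8 steroid receptors and targets tested between days 12 and 18, the glucocorticoid and progesterone receptor cochaperone FKBP5 was called higher on day 12 (log2 fold change 1.77, SE 0.40, edgeR adjusted p = 0.00738) and the progesterone receptor PGR lower (-3.14, SE 0.53, edgeR adjusted p = 0.00310). Of 11 IGF, FGF and EGF family genes tested 2 were called higher, AREG and EGF, and 3 lower. Solute and ion transport genes counted 3 higher and 1 lower of 14 tested, Wnt, BMP and Notch genes 1 and 2 of 11, complement and innate defence genes 1 and 1 of 15, and steroid and prostaglandin enzymes 1 and 1 of 8. Receptor and ligand members outside the lists included DLL1, a Notch ligand, with 31.6, 35.6, 47.5 and 56.1 CPM on day 12 and 30.6, 15.1 and 12.2 CPM on day 18, which did not overlap.

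Of the member symbols, 81 were found once in the RefSeq gene order, and among these VMO1 and GLTPD2 lie next to each other and LMBR1L and RHEBL1 with 1 gene between. Across the 22 oviduct libraries, which share day and tissue, the log2 levels of these pairs correlated at r = 0.766 and 0.856. The spans of 16 members overlap another protein-coding gene, and without a stated strand setting in the counting their reads could be shared with it.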

How the data were processed

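RNA-seq libraries of 3 tissues on 7 days gave 1 table of gene counts. Per the labels and the study's methods, the authors trimmed reads, aligned them with TopHat2 to the Sus scrofa 10.2 assembly with Ensembl genes and deposited raw counts per gene; featureCounts, edgeR and Cuffdiff are named in the submitters' processing notes, and the strand setting is not given in the sources used here. The sources name a stranded kit in one place and an unstranded one in another. All 66 count columns were used, and 1 more sample with an endometrium day 12 label is not analysed here. Nothing in the labels ties a library to 1 gilt, so p-values measure the spread between these libraries.

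CPM on column totals chose the members. Tests were edgeR (4.0.16, in R 4.3.3) quasi-likelihood fits with TMM scaling, filterByExpr and Benjamini-Hochberg adjustment over all genes tested, with a threshold of 0.05: 1 model of all oviduct libraries with day as a factor, and 1 of all 3 tissues with tissue and day combined. The SE of a log2 fold change was taken as its absolute value over the square root of the test's F statistic. It is approximate, as this edgeR test gives no SE. The study itself used Cuffdiff on FPKM. Alternatives were DESeq2 (1.42.0) and its size factors, no filter, fewer groups in the fit, a replicate block, another constant added to CPM, and each library left out in turn. Scripts were tested on simulated data.

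Members and lists were chosen with earlier results of these data known. Named genes were the 10 members with the highest oviduct mean over days 3, 6, 12, 15 and 18, the 10 with the largest ratio, the 5 with the smallest p on day 12 against day 18, members in a marker or pathway list, and 2 genes on each side of the threshold. All other genes named were chosen after their values were seen. Some results are not reported here. Symbols came from a table of gene names (11804 of 25322 genes matched), and gene order and overlaps from RefSeq on Sscrofa11.1, whose coordinates are not used. Depth limits low genes: intervals and the floor of 3 counts cover counting error only.

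Library numbers were checked for pairing by correlating deviations from group means. Same-numbered endometrium and oviduct libraries of a day correlated at 0.103 to 0.282 in all 21 pairs, so numbers pair these tissues, while 13 of 21 ovary and oviduct pairs were over 0.1. The tissue differences of single genes given above, with their SE and adjusted p, come from the fit without this pairing. Counts of members with the pairing are given below.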

Additional observations from a re-analysis of the deposited data

Results flagged for a closer look

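Within groups of 4 libraries, 23 of 119 groups looked at over 24 named members (19.3%) had 1 library far from the other 3 by Dixon's test. Chance gives this in about 1 in 20 groups of normally distributed values. The test was run on CPM, whose shape was not checked and which in some groups lies under 3 counts, so the share flagged measures no excess. Several flags fall in the same library and are not independent.

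Ovary day 12 library 1 was the highest of its group for ERBB2 (144 CPM, others 33.5 to 41.8), LZTS3 (54.4), CDC25B (80.7), PHF1 (101.3), GALNT9 (3.31), PRRT2 (13.2), LMBR1L (73.0) and TAS1R3 (12.96 CPM). Ovary day 15 library 1 was the highest for CLDN4 (78.3 CPM, others 1.24 to 7.74), CCDC190 (18.6), COL28A1 (6.79), SPHKAP (7.76) and GPX6 (4.17 CPM). This is the ovarian library with 652.6 CPM of ciliated cell markers, and the part of other tissue in these values was not tested. Endometrium day 15 library 2 was the highest for EFTUD2 (260.5 CPM, others 189 to 195), LZTS3 (296.5), CNTNAP4 (0.743) and CAMK2N1 (33.5 CPM) and the lowest for CPD (171.3 CPM, others 454 to 499). Single cases were ST6GALNAC2 in ovary day 15 library 3 (25.8 CPM, the lowest), GPX6 in ovary day 12 library 4 (0.0888 CPM, others 0), and in the oviduct GALNT9 in day 12 library 4 (6.45 CPM), AREG in day 15 library 3 (6.62 CPM) and GPX6 in day 15 library 4 (54.9 CPM, others up to 4.33).

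The log2 change of day 12 over day 18 differed between tissues, by edgeR's test of the difference, for 7 named members against the endometrium: EFTUD2 (1.13), CPD (2.20), CDC25B (2.81), SPHKAP (4.46), DDIT4L (4.93), PRRT2 (2.23) and KLF7 (1.5). Against the ovary 8 differed: EFTUD2 (0.75), CDC25B (1.69), PHF1 (1.19), DDIT4L (3.36), PRRT2 (2.69), LMBR1L (1.95), TAS1R3 (1.34) and KLF7 (2).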

How the results depend on the processing

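With TMM-scaled CPM the rule gave 83 genes, and with 0.1 added to the mean CPM in place of 1 it gave 299, of which 99 are members here. Leaving out 1 library in turn gave 134 to 182 members, and 45 genes were members without each of the 18 libraries. Without ovary day 15 library 1, an alternative chosen after seeing the data, 11 members in place of 19 reached 2.5 times day 0 on another day in the ovary.

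Members called higher on day 12 than on day 18 numbered 32 with only these groups in the fit, 35 with the members of the TMM rule (an alternative chosen after seeing the data), and 29 to 74 without 1 library. Higher on day 12 than on day 3 were 39 by DESeq2, 5 without days 0 and 9 and 4 to 20 without 1 library. For day 6 against day 3 and day 12 against day 15 DESeq2 called 2 each, and leaving out 1 library gave 0 for the former and 0 to 24 for the latter. The change was called higher than in the endometrium for 17 to 39 members and than in the ovary for 26 to 52 without 1 library, and for 13 against the ovary with only the compared groups. Day 12 levels above the endometrium were called for 68 to 80 and above the ovary for 98 to 106. The share of all genes called also changed between fits. It is not given beside most of these counts, here or above, so a shift in a count is not by itself a result about the members. The cause of these shifts was not tested.

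With library number as a replicate block, 64 members were called higher on day 12 than on day 18 (8.71% of all genes tested). The number was 14 on day 12 than on day 3 (0.696%), 0 on day 6 than on day 3 and 0 on day 12 than on day 15 (0% of all genes in both). Under the pairing by number within a day, 26 changed more than in the endometrium and 34 more than in the ovary (3.77% and 9.55%). In level 83 and 108 were higher than in these tissues (19% and 28.7%). Within the oviduct, same-numbered libraries of different days had a median correlation of -0.00869.

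Of 680 values of single named genes under an alternative, 568 kept direction and side of the threshold, 95 lost the call, 11 gained one and 6 turned direction. For the log2 fold change of day 12 over day 18, FMO2 was 0.012 with the block, and ranged from -0.69 to 2.05 without 1 library, being 0.03 and 0.11 without day 12 libraries 1 and 3. ADAMTS13 ranged from -0.20 to 0.81, and was -0.0054 without day 18 library 3.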
